A study of Mus musculus with 8 samples.

Results

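The genes described here mark intermediate progenitors of the cerebral cortex, and they were taken by symbol from a fixed list: Eomes, Insm1, Neurog1, Neurog2, Sstr2, Mfng, Btg2 and Hes6. All 8 were found among the 55202 genes of the deposited count tables, and 7 passed the low-count filter. Expression was measured by RNA sequencing in presumptive subplate, the lowest stratum of the cortical plate, taken by microdissection out of somatosensory cortex at birth (postnatal day 0) in mice of mixed strain. The conditional Lhx2 allele (Lhx2lox/lox) was recombined by Emx1Cre11.5, a Cre driven by Emx1 that acts in cortical progenitors, or by NexCre, a Cre driven by Neurod6 (Nex) that acts in postmitotic excitatory neurons. Each line had 2 libraries from controls labelled wild type and 2 from mutants, Emx1Cre11.5;Lhx2lox/lox or NexCre;Lhx2lox/lox, and each library was a pool of 2 brains. Whether controls carried a Cre or a floxed allele is not given in the sources used here, so effects of Cre or of the floxed allele and effects of losing Lhx2 cannot be told apart.

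Intermediate progenitors are dividing cells of the subventricular zone that arise from radial glia and produce excitatory neurons. The proneural factors Neurog1 and Neurog2 start neuronal commitment in radial glia, Eomes (Tbr2) defines the intermediate progenitor state, and Insm1 promotes the formation of these cells. Their number declines around birth, when cortical neurogenesis ends and gliogenesis begins, and their germinal layer lies beneath the subplate.

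The regions just upstream of the annotated start are shown for Eomes and for Neurog2, the member that followed it most closely across libraries, for Neurog1, the paralog with almost no reads, and for Hes6, the most abundant member per length in 3 of the 4 groups. They hold 250 bases before the start, from RefSeq (GRCm38.p6, the mm10 assembly), 5′ to 3′ on the gene's strand. Capitals mark an E-box (CANNTG, the site class bound by basic helix-loop-helix factors such as Neurog2), a homeodomain core (TAATTA) or a TATA element (TATATAA, chosen after the sequences were read), each searched on both strands.
Eomes, plus strand, chr9:118477939-118478188: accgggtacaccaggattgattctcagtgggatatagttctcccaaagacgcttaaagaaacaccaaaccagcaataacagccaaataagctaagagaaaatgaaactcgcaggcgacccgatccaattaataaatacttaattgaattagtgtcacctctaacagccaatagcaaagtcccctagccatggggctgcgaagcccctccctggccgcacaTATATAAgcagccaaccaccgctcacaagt
Neurog2, plus strand, chr3:127632886-127633135: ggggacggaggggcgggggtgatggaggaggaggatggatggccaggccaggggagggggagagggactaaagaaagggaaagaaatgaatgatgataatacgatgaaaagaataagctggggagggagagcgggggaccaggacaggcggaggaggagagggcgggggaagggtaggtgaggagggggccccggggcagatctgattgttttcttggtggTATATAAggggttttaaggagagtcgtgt
Neurog1, minus strand, chr13:56252181-56252430: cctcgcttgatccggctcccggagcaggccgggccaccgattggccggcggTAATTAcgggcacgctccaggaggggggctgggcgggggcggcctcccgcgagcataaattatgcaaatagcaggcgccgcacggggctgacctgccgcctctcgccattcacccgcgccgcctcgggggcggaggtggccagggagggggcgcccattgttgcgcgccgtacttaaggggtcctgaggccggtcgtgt
Hes6, minus strand, chr1:91414039-91414288: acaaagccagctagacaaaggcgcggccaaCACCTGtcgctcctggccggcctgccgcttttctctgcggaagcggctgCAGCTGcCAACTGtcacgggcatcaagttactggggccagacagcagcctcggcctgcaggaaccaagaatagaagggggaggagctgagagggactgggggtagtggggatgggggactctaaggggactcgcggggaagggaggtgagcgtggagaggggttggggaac

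Eomes and Neurog2 each had 1 TATA element, starting at −30 and −29 relative to the start, and neither had an E-box or homeodomain core. Of 32851 RefSeq upstream windows of the same length, 3.0% held the TATA letters, 66.2% an E-box and 4.8% the homeodomain core. Neurog1 had 1 homeodomain core, at −199, and no E-box. Hes6 had 3 E-boxes, CACCTG at −220, CAGCTG at −171 and CAACTG at −164, and none of the matched letters overlapped. A second annotated Hes6 start, whose window is not printed, had 1 E-box, at −150. The table held windows for 6 of the 8 members, and the other two, Insm1 and Mfng, are named only.

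Levels are in CPM, a gene's reads as a share of its library scaled to a common total, after TMM scaling, from 31.2 to 64.4 M reads per library. The replicates may share technical steps, and p-values measure only the spread between these pools. In these bulk samples, fewer cells of a type and less RNA per cell cannot be told apart. Lhx2 had Emx1Cre control values of 90.4 and 91.5 CPM and mutant values of 64.0 and 42.7 CPM, whereas in the NexCre line it was 182 and 236 CPM in controls and 227 and 245 CPM in the libraries labelled mutant. Lhx2 differed on the log2 scale by −0.77 ± 0.20 (SE) in the Emx1Cre line (adjusted p = 0.273, edgeR) and 0.18 ± 0.20 in the NexCre line, so it was not called in either. Emx1, the gene driving the first Cre, fell in the Emx1Cre mutants by 1.66 on the log2 scale (adjusted p = 0.0334, edgeR). Emx1 was also lower in both NexCre mutants than in both NexCre controls (−0.61 ± 0.22, adjusted p = 1, edgeR). Neurod6, the gene driving the second Cre, had a log2 fold change of −0.75 ± 0.23 in the NexCre line. The counts cover the whole gene and do not separate the deleted exons. The non-coding RNA Rn7sk, unscaled, ranged from 1.42 to 32.4 CPM in the Emx1Cre libraries and from 18430 to 23100 CPM in the NexCre libraries, so library composition differed between the lines. Within the Emx1Cre line it was 4.66 and 1.42 CPM in control 1 and mutant 1, and 32.4 and 16.9 CPM in control 2 and mutant 2.

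The label was checked against the defining gene. Eomes (chromosome 9, 118478212 to 118486132, mm10), a T-box transcription factor, had 155 and 6 reads in Emx1Cre controls 1 and 2 and 15 and 1 reads in Emx1Cre mutants 1 and 2. In the NexCre line it had 1240 and 1543 reads in controls and 2678 and 2302 reads in mutants. Unscaled reads of this gene therefore numbered 15 or fewer in 3 of the 4 Emx1Cre libraries and at least 1240 in each NexCre library. Scaled, Eomes was 0.0248 to 2.40 CPM in the Emx1Cre and 38.5 to 70.4 CPM in the NexCre libraries. Neurog1 (chromosome 13, 56250478 to 56252163) had 0 reads in 7 libraries and 1 read in NexCre control 2. A count of 0 allows up to 3 reads, or 0.0465 to 0.0934 CPM depending on the library, and this limit covers counting error only.

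**Figure D1:**
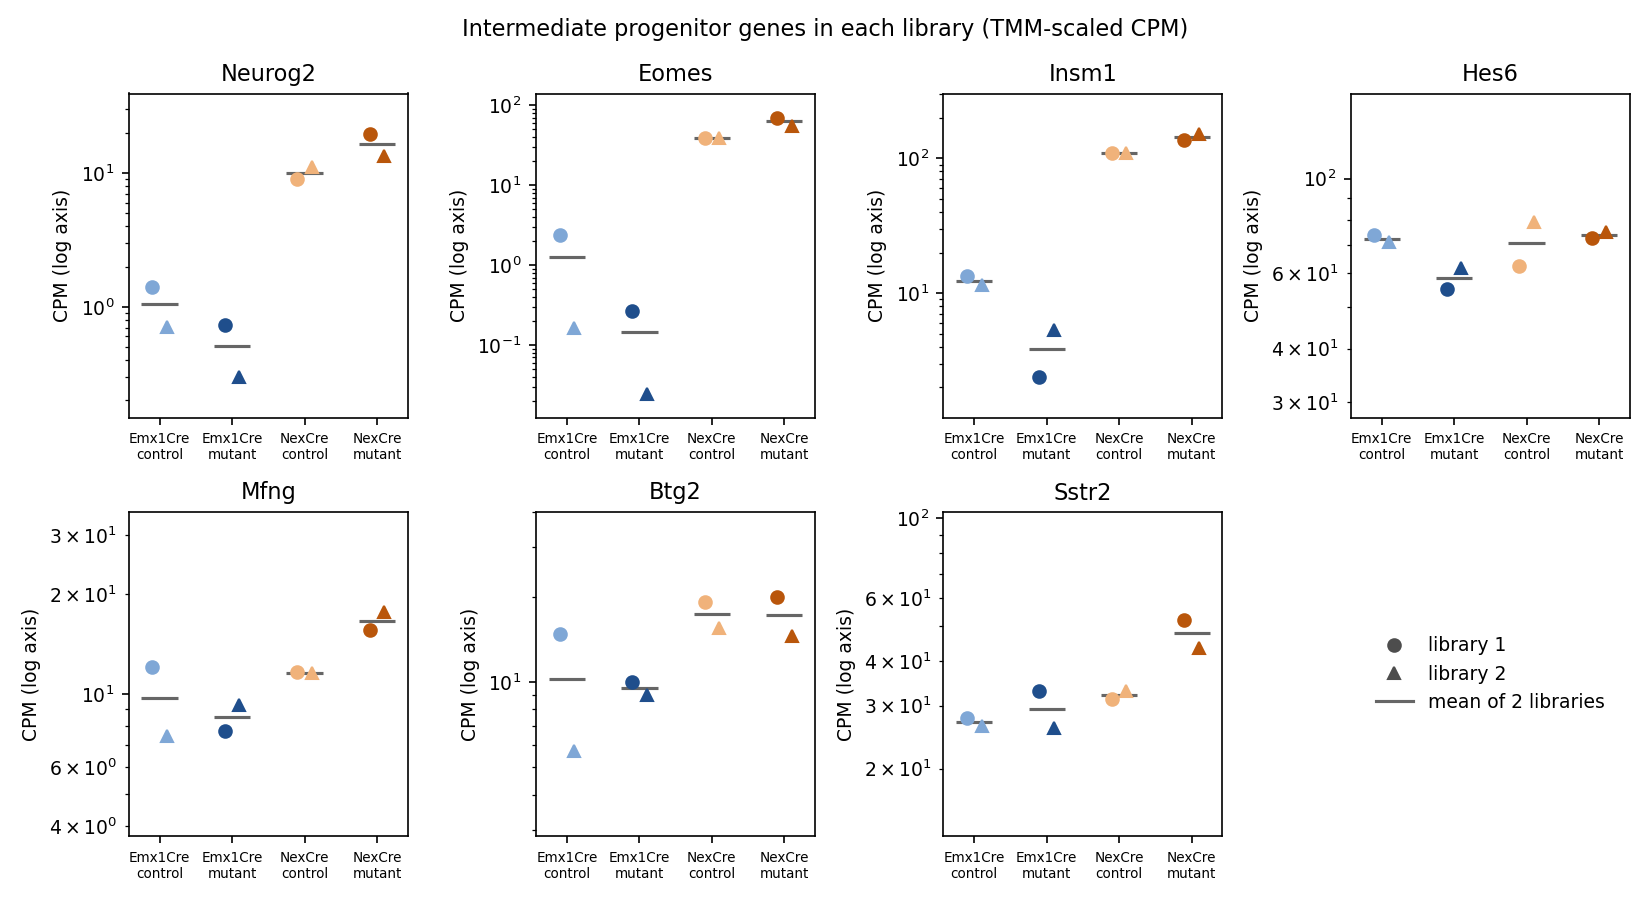
Scaled CPM of the 7 tested members (log axis) in the 4 groups; circles are library 1, triangles library 2 and bars the mean of 2 libraries. Neurog2, Eomes and Insm1 lie far higher in all 4 NexCre libraries than in the Emx1Cre libraries (Eomes 38.5 to 70.4 against 0.0248 to 2.40 CPM), and Insm1 is lower in both Emx1Cre mutants than in both controls.

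The first comparison asks how these genes stood in the subplate when the floxed Lhx2 allele was combined with a Cre of cortical progenitors. Insm1, a zinc-finger factor of newly committed progenitors, showed the clearest separation, being lower in both Emx1Cre mutants than in either control. Eomes was high in 1 control library only, and Neurog2 was low in every Emx1Cre library. Of the 7 tested members, 0 were called in edgeR's quasi-likelihood test (adjusted p under 0.05 with Benjamini-Hochberg adjustment across the 22820 tested genes), where 0.0789% of all genes were called. At an unadjusted p under 0.05, which 7.59% of all genes passed, there were 2 members, both lower (as were 3.07% of all genes), and DESeq2 called 1, Insm1, where it called 1.48% of the genes it gave an adjusted p. With a term for the library number added, edgeR called 82 genes, among them 2 members, Eomes and Insm1. Nothing in the labels says what a number marks. The median log2 fold change of the 7 was −0.31, with 6 below their control level and 1 above, against a median of 0 over all genes tested.

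Neurog2 (chromosome 3, 127633135 to 127635631), the basic helix-loop-helix factor that starts the neurogenic programme, had Emx1Cre control values of 1.41 and 0.703 CPM and mutant values of 0.727 and 0.297 CPM. Control 2 and mutant 1 were level, so the groups overlapped. The log2 fold change was −1.03 ± 0.47 (SE, n = 2 pools a group; adjusted p = 0.657, edgeR), with a 95% interval from −2.08 to 0.0078.

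Eomes, which acts after Neurog2, had Emx1Cre control values of 2.40 and 0.162 CPM and mutant values of 0.266 and 0.0248 CPM. Control 1 alone was high, 14.8 times control 2, and control 2 lay below mutant 1. The log2 fold change was −3.07 ± 0.97 (95% interval −5.25 to −0.90, adjusted p = 0.440, edgeR, n = 2 pools a group). Without control 1 it was 0.00099, so the value rests on that library, and without control 2 it was −3.88 with an adjusted p of 0.0499 (edgeR). Fits without a library leave 1 sample in its group, which is assumed to vary like the other groups. The Emx1Cre libraries numbered 1 had less Rn7sk than those numbered 2. Taken by number, control 1 was 9.04 times mutant 1 (95% counting interval 5.32 to 16.5). Control 2 was 6.55 times mutant 2, from 6 reads and 1 read (0.795 to 301.3). Each ratio sets 1 library against 1, with no replicate.

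Insm1 (chromosome 2, 146221921 to 146225020) had Emx1Cre control values of 13.3 and 11.5 CPM and mutant values of 2.39 and 5.30 CPM. Both mutants lay below both controls, and the lowest control was 2.16 times the highest mutant. The log2 fold change was −1.71 ± 0.29 (95% interval −2.36 to −1.06), which ranked 37th by p among 22820 genes. Its adjusted p was 0.0965 by edgeR with n = 2 pools a group and 5.74e-06 by DESeq2. Taken by number, control 1 was 5.57 times mutant 1 and control 2 was 2.16 times mutant 2, each 1 library against 1 with no replicate. Leaving out single libraries gave values from −2.37 to −1.24, and without mutant 2, with the lone mutant assumed to vary like the other groups, it was called (−2.37, adjusted p = 0.00905, edgeR).

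Hes6 (chromosome 1, 91411483 to 91414038), a Hes-family factor that counters Hes1 and favours differentiation, had Emx1Cre control values of 73.6 and 71.0 CPM and mutant values of 55.1 and 61.7 CPM. Both mutants were lower than both controls, by a small margin. Its log2 fold change was −0.31 ± 0.15 (adjusted p = 0.701, edgeR, n = 2 pools a group). Hes6 and Insm1 were the 2 members whose mutants both lay below their controls, and 15.2% of all tested genes did so.

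Mfng (chromosome 15, 78755882 to 78773475), a glycosyltransferase that modifies Notch receptors, had Emx1Cre control values of 12.02 and 7.46 CPM and mutant values of 7.71 and 9.26 CPM. Btg2 (chromosome 1, 134075170 to 134079120), an antiproliferative gene switched on in progenitors about to make neurons, had control values of 14.8 and 5.70 CPM and mutant values of 9.98 and 9.01 CPM. In both genes the controls spanned the mutants, with control 1 highest and control 2 lowest. Sstr2 (chromosome 11, 113619342 to 113626028), a somatostatin receptor, had control values of 27.7 and 26.3 CPM and mutant values of 32.9 and 25.9 CPM, and the groups overlapped. Their log2 fold changes were −0.20 ± 0.26, −0.12 ± 0.38 and 0.12 ± 0.17. Without control 1 the values of Mfng and Btg2 were 0.19 and 0.74, on the other side of 0.

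**Figure D2:**
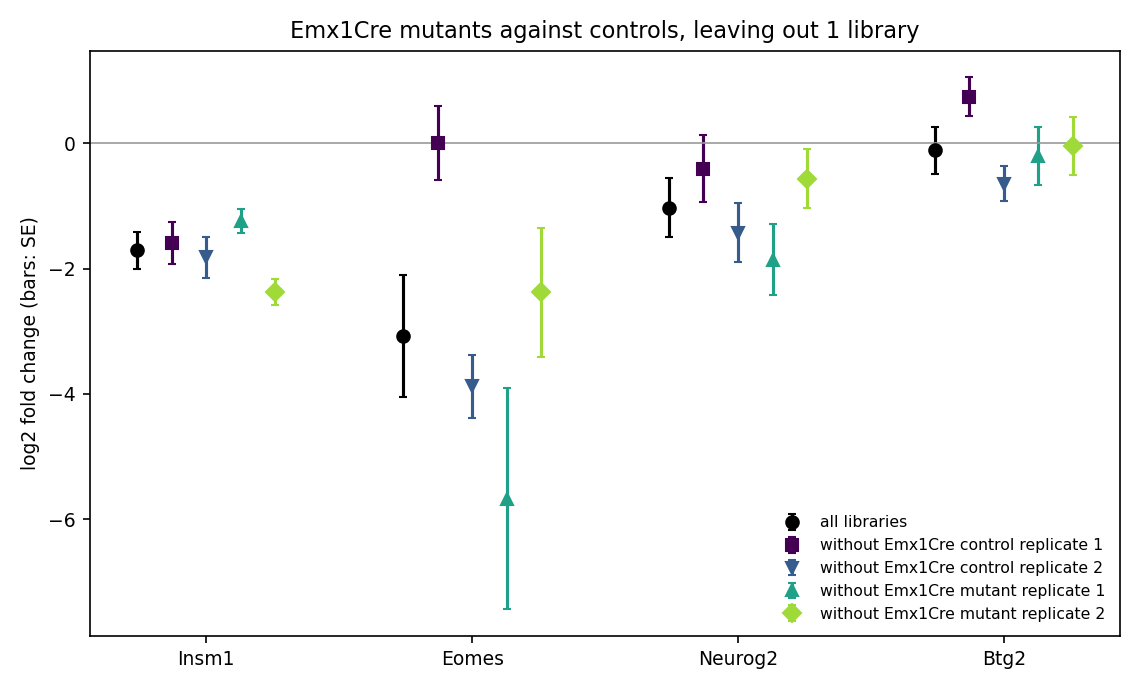
Log2 fold change of 4 members in Emx1Cre mutants against controls (vertical axis, bars are SE), with all libraries and with each Emx1Cre library left out in turn. Insm1 stays between −2.37 and −1.24, while Eomes moves to 0.00099 and Btg2 to 0.74 without control 1.

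The NexCre comparison asks about the same genes when the floxed allele was combined with a Cre of postmitotic excitatory neurons, a stage after intermediate progenitors. Whole-gene counts of Lhx2, given above, do not show its loss in these libraries. Eomes, Neurog2, Insm1, Sstr2 and Mfng were each higher in both mutants than in both controls, by 1.31 to 1.64 times in the fit, while Btg2 and Hes6 overlapped. Of the 7 tested members, 0 were called by edgeR, where 0.0307% of all genes were called, and DESeq2 called 0, with 0.394% of all genes called. At an unadjusted p under 0.05 edgeR had 1 member, Sstr2, higher, as were 1.69% of all genes (3.96% passed in either direction). Both mutants lay above both controls for 5 of 7 members, against 18.1% of all tested genes, and the 7 genes are not independent of each other. The median log2 fold change of the 7 was 0.52, against 0.0038 over all genes tested.

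Neurog2 had NexCre control values of 9.09 and 11.04 CPM and mutant values of 19.7 and 13.4 CPM. Eomes had control values of 38.6 and 38.5 CPM and mutant values of 70.4 and 55.8 CPM. Insm1 had control values of 110.5 and 110.4 CPM and mutant values of 138 and 151 CPM. The controls of Eomes and Insm1 were nearly level with each other, closer than the replicates of all but 1.18% and 0.688% of tested genes. For all 3 genes the mutants were above the controls, Eomes and Neurog2 being highest in mutant 1 and Insm1 in mutant 2.

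Log2 fold changes were 0.72 ± 0.40 for Neurog2, 0.71 ± 0.62 for Eomes and 0.39 ± 0.27 for Insm1, each with an adjusted p of 1 in edgeR. The spread was estimated over both lines, and the Emx1Cre replicates of Eomes differed far more than those of the NexCre line. Fitted on the NexCre libraries alone, Eomes had an unadjusted p of 0.000883 and an adjusted p of 0.262 (edgeR, n = 2 pools a group).

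Sstr2 had NexCre control values of 31.4 and 32.9 CPM and mutant values of 52.1 and 43.4 CPM, with a log2 fold change of 0.57 ± 0.18 (95% interval 0.18 to 0.96, adjusted p = 0.950, edgeR, n = 2 pools a group). Mfng had control values of 11.6 and 11.5 CPM and mutant values of 15.6 and 17.6 CPM, with a log2 fold change of 0.52 ± 0.26 (adjusted p = 1). Both genes showed mutants above controls with little spread among the controls. Btg2 had control values of 19.2 and 15.6 CPM and mutant values of 20.01 and 14.5 CPM, and Hes6 had control values of 62.6 and 79.1 CPM and mutant values of 72.7 and 75.0 CPM. Their log2 fold changes were −0.01 ± 0.37 and 0.06 ± 0.15, and the value of Btg2 changes sign with the scaling.

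**Figure D3:**
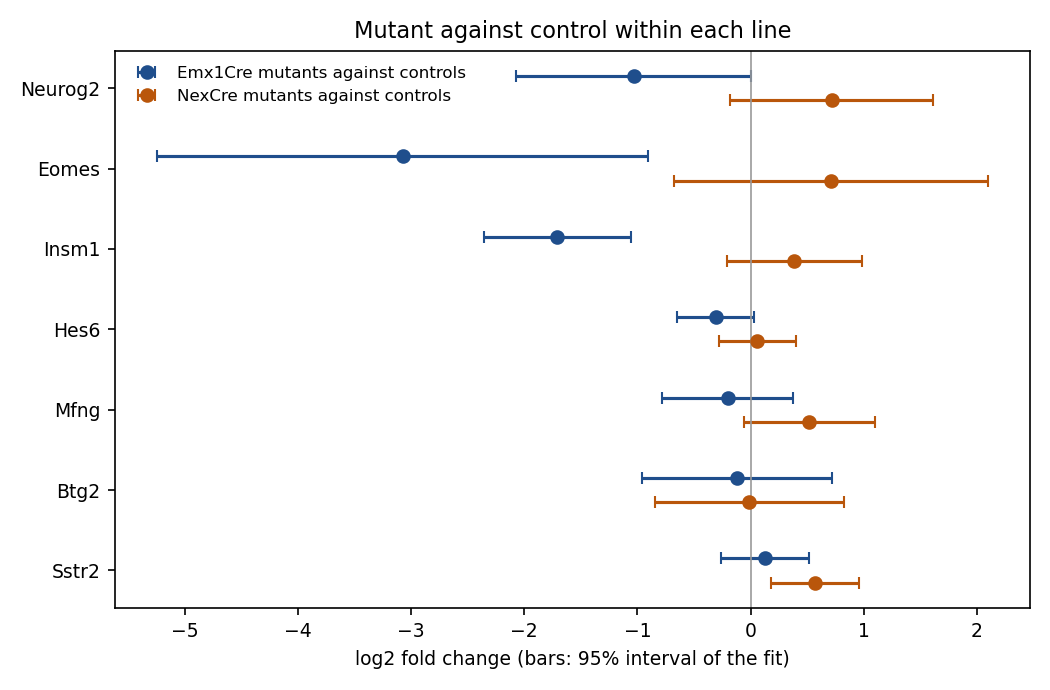
Log2 fold change of mutants against controls within each line (horizontal axis) for the 7 tested members, with 95% intervals of the fit, n = 2 libraries a group. Insm1 has intervals of −2.36 to −1.06 in the Emx1Cre line and −0.21 to 0.98 in the NexCre line.

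The difference between the 2 effects was tested in the same fit. All 7 members had a lower log2 fold change in the Emx1Cre than in the NexCre line, with a median difference of −0.72. By edgeR 0 of 7 were called, where 0.00438% of all genes were called, with 3 lower at an unadjusted p under 0.05 (2.06% of all genes). Insm1 had the lowest p of the members, with a difference of −2.10 ± 0.39 (adjusted p = 0.433, edgeR) that ranked 14th among all genes. DESeq2 called Insm1 alone of the members (−2.09, adjusted p = 0.000441), with 0.487% of all genes called. Eomes and Neurog2 differed by −3.79 ± 1.16 and −1.75 ± 0.62 (adjusted p = 0.677 and 0.782, edgeR), and without Emx1Cre control 1 the value of Eomes was −0.71.

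The control groups of the 2 lines were compared after the data had been seen, because Eomes, Insm1 and Neurog2 stood far apart between the lines. Eomes, Insm1 and Neurog2 were higher in NexCre than in Emx1Cre controls, and the other four tested members were not called. The lowest of the 4 NexCre libraries stood above the highest of the 4 Emx1Cre libraries by 16.0 times for Eomes, 8.29 times for Insm1 and 6.44 times for Neurog2. Their log2 fold changes between controls were 4.80 ± 0.75, 3.15 ± 0.29 and 3.22 ± 0.45. These 3 of 7 members passed the threshold in edgeR, a description since they prompted the comparison. Of all tested genes 26.6% were called higher, and the median log2 fold change of all genes was 0.17. Sstr2, Mfng, Btg2 and Hes6 had log2 fold changes of 0.25 ± 0.18, 0.25 ± 0.26, 0.75 ± 0.38 and −0.03 ± 0.15, and the sign of Hes6 changes with the scaling. Without Emx1Cre control 1, which leaves the control lowest in Btg2 alone in its group, the value of Btg2 was 1.61.

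Line, library composition and dissection cannot be told apart in that comparison. Markers of subplate neurons went the other way, with 6 of 7 tested markers called lower in NexCre controls (19.3% of all genes were) and a summed level of 346 and 392 CPM in Emx1Cre controls against 66.1 and 66.4 CPM in NexCre controls. Cplx3, a complexin of subplate neurons, measured 51.2 and 62.7 CPM against 0.903 and 1.42 CPM. Radial glia genes were called higher for 10 of 14 and cell cycle genes for 7 of 18, against 26.6% of all genes. Other intermediate progenitor genes were called higher for 6 of 10. Markers of other cells differed too, with 7 of 7 for the oligodendrocyte lineage, 4 of 7 for astrocytes and 4 of 7 for endothelium called lower, and 6 of 8 for meninges called higher. Pax6, the radial glia transcription factor, stood at 11.6 and 5.86 against 33.9 and 33.2 CPM. Mki67, a proliferation marker, stood at 21.0 and 14.1 against 94.4 and 72.9 CPM. Each had the largest log2 fold change of its list, 1.93 for Pax6 and 2.25 for Mki67. The list medians were 0.87 for radial glia and 0.53 for the cell cycle, with 3 of 14 and 4 of 18 genes below 0. The part of these shifts in the member values was not tested.

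Levels of different genes were compared per kilobase of exon. In NexCre controls the order of the mean level was Hes6 (39.2 CPM per kb), Insm1 (35.6), Sstr2 (14.998), Eomes (9.28), Btg2 (6.34), Neurog2 (4.52) and Mfng (4.08), with Neurog1 at 0.0074. Hes6 and Insm1 did not separate beyond the spread of the 2 libraries, nor did Neurog2 and Mfng. In Emx1Cre controls the order was Hes6 (40.0 CPM per kb), Sstr2 (12.6), Insm1 (4.00), Btg2 (3.74), Mfng (3.43), Neurog2 (0.475) and Eomes (0.309). Insm1, Btg2 and Mfng overlapped there, as did Neurog2 and Eomes. Insm1 and Eomes thus ranked lower in the Emx1Cre order. Neurog2 kept its nominal place, not separated from a neighbour in either order. Its level was 0.475 CPM per kb in Emx1Cre and 4.52 CPM per kb in NexCre controls. With the longest transcript as length, Mfng was 6.21 and Eomes 10.8 CPM per kb in NexCre controls, which places Mfng above Neurog2.

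**Figure D4:**
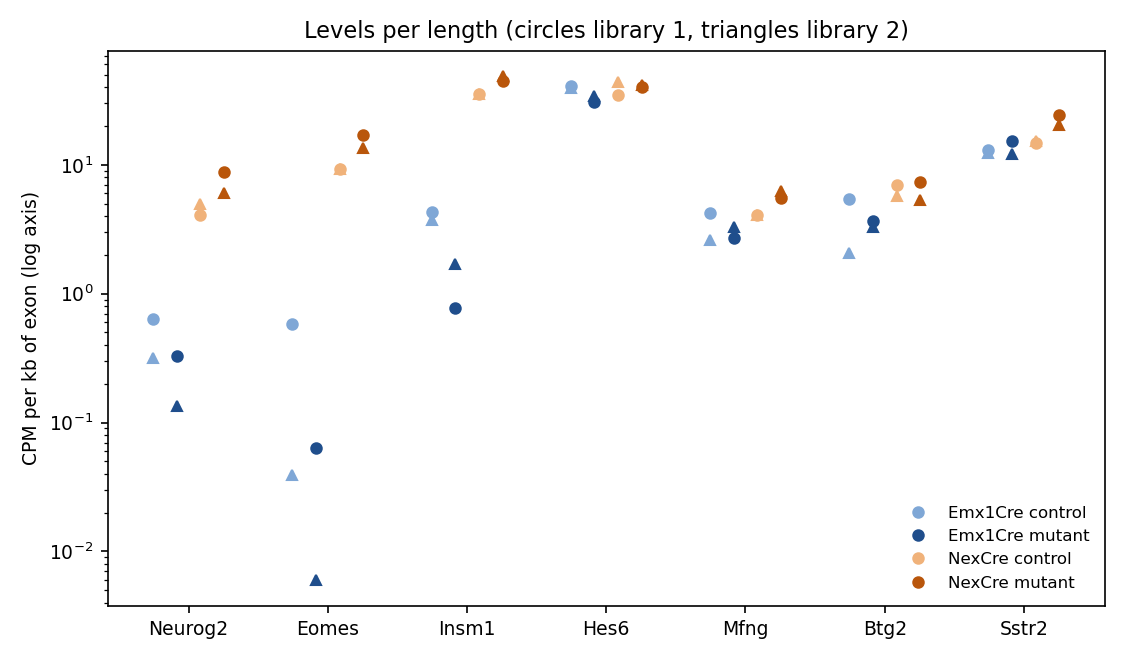
CPM per kilobase of exon (log axis) of the 7 tested members in each library; colours are the 4 groups, circles library 1 and triangles library 2. Hes6 lies between 30.5 and 43.7 CPM per kb in all 8 libraries, and Eomes spans the widest range.

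The members did not all follow Eomes from library to library. After centring log2(CPM + 0.5) on the mean of each line, Pearson's r with Eomes over the 8 libraries was 0.868 for Neurog2, 0.748 for Mfng, 0.702 for Btg2, 0.542 for Insm1, 0.468 for Hes6 and 0.354 for Sstr2. The points share libraries, scaling and 1 high library, Emx1Cre control 1, which lay 1.63 above its line's mean for Eomes. By the same measure the 5 most similar of 12086 genes with a mean of at least 5 CPM included Ntn4 (0.979), Dnaaf5 (0.978), Trim13 (0.965) and Polr2h (0.957). Each of these 4 was highest in Emx1Cre control 1 among the Emx1Cre libraries, and Ntn4, a netrin, stood at 14.6 CPM there and at 9.70 to 9.93 CPM in the other Emx1Cre libraries.

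Other intermediate progenitor genes, 10 in all and not members, were read beside them. By edgeR 0 of 10 were called in Emx1Cre mutants, with 2 lower at an unadjusted p under 0.05 (3.07% of all genes). The median log2 fold change was −0.07. In NexCre mutants 0 of 10 were called by edgeR, with 2 higher at that p (1.69% of all genes) and a median of 0.37. In the NexCre line all 10 lay above their control level, from 0.02 to 0.97 on the log2 scale, and several were near 0. Elavl4 was 0.02 ± 0.19, Dll1 0.06 ± 0.21, Gadd45g 0.09 ± 0.32 and Dll3 0.12 ± 0.28, and the groups overlapped in each. Neurod1, a factor of the step from intermediate progenitor to neuron, had Emx1Cre control values of 13.7 and 4.95 CPM and mutant values of 4.65 and 4.56 CPM. Both mutants lay just below control 2, control 1 stood apart as for Eomes, and the log2 fold change was −1.02 ± 0.37. In the NexCre line Neurod1 had control values of 16.5 and 17.8 CPM and mutant values of 35.0 and 32.2 CPM (0.97 ± 0.37, adjusted p = 1 in edgeR). Unc5d, a netrin receptor known as the subventricular zone transcript Svet1, had NexCre control values of 180 and 143 CPM and mutant values of 218 and 224 CPM (0.45 ± 0.15). In the Emx1Cre line Unc5d ranged from 27.2 to 31.4 CPM in all 4 libraries, with no separation of the groups, whereas Insm1 lay lower in both mutants. Nhlh1, a helix-loop-helix gene of newborn neurons, had reads in Emx1Cre control 1 only among the Emx1Cre libraries (0.124 CPM).

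**Figure D5:**
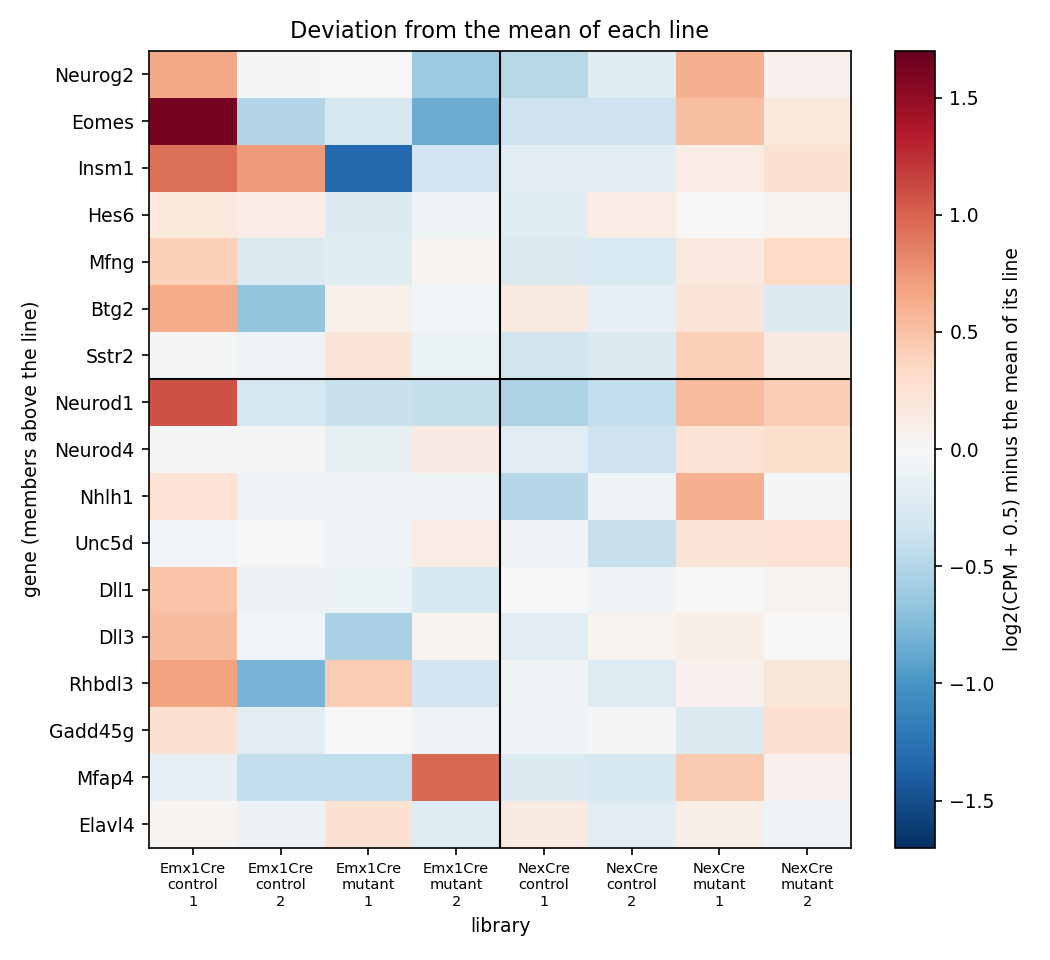
Log2(CPM + 0.5) minus the mean of the gene's line (colour) for the 7 tested members and 10 other intermediate progenitor genes in each library. Emx1Cre control 1 is high for Eomes (1.63), Neurog2 (0.64), Btg2 and Neurod1, while Insm1 is high in both Emx1Cre controls (0.93 and 0.72).

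Genes of the neighbouring steps of the lineage were read from lists. Over all tested genes, an unadjusted p under 0.05 was reached by 4.52% above and 3.07% below control in the Emx1Cre line and by 1.69% above and 2.27% below in the NexCre line, and a single gene of a list is near these shares. Radial glia genes had 0 of 14 called by edgeR in either mutant comparison, with 3 and 2 higher at an unadjusted p under 0.05 and medians of 0.26 (Emx1Cre) and 0.12 (NexCre). Slc1a3, a glutamate transporter, and Lrig1 had the lowest p in the Emx1Cre line (0.75 ± 0.19 and 1.12 ± 0.29), and Hopx and Notch1 in the NexCre line (1.10 ± 0.36 and 0.47 ± 0.17). Pax6, which acts upstream of Eomes in this lineage, had Emx1Cre control values of 11.6 and 5.86 CPM and mutant values of 6.61 and 6.76 CPM. In the NexCre line Pax6 had control values of 33.9 and 33.2 CPM and mutant values of 45.7 and 52.4 CPM, so its mutants lay above its controls as those of Eomes did.

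Notch pathway genes had 0 of 17 called by edgeR in either comparison, with 1 higher at an unadjusted p under 0.05 in each and medians of −0.02 and 0.09. The lowest p belonged to Notch3 and Dll1 in the Emx1Cre line (0.75 ± 0.22 and −0.42 ± 0.21) and to Notch1 and Notch2 in the NexCre line. Lfng, the fringe paralog of Mfng, had Emx1Cre control values of 28.8 and 16.4 CPM and mutant values of 30.3 and 32.4 CPM. Cell cycle genes had 0 of 18 called by edgeR, with unadjusted p under 0.05 for 1 above and 1 below control in the Emx1Cre line and 0 in the NexCre line, and medians of 0.02 and 0.16. The 2 with the lowest p in the Emx1Cre line lay on opposite sides of 0, Mki67 at 0.63 ± 0.23 and Rrm2, a ribonucleotide reductase subunit, at −0.41 ± 0.15. Mki67 had a log2 fold change of 0.37 ± 0.23 in the NexCre line.

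Genes of excitatory neuron differentiation had 0 of 12 called by edgeR, with 6 lower at an unadjusted p under 0.05 in the Emx1Cre line (median −0.38) and 2 higher and 1 lower in the NexCre line (median −0.01). Neurod1 was among the 2 with the lowest p in the Emx1Cre line (−1.02 ± 0.37), and Neurod6 and Tbr1, the T-box relative of Eomes in postmitotic neurons, had the lowest p in the NexCre line (−0.75 ± 0.23 and 0.54 ± 0.18). Btg2 also responds to neuronal activity and to p53. Immediate early genes had 0 of 11 called by edgeR (unadjusted p under 0.05 for 3 above control in the Emx1Cre and 1 below in the NexCre line, medians 0.27 and 0.19, with Arc at 1.17 ± 0.42 in the Emx1Cre and Egr3 at −1.09 ± 0.28 in the NexCre line), and p53 target genes 0 of 8 (1 lower in each line, medians −0.04 and −0.08, with Plk2 at −0.65 ± 0.16 and Cdkn1a at −1.02 ± 0.38). In Emx1Cre control 2, where Btg2 was lowest at 5.70 CPM, the immediate early list summed to 89.7 CPM. In control 1, where Btg2 was highest at 14.8 CPM, the list summed to 75.3 CPM. Its genes went both ways between these controls. Egr1 and Nr4a1 were higher in control 2 (18.3 and 18.5 against 9.96 and 9.20 CPM). Junb and Npas4 were higher in control 1 (9.91 and 1.97 against 7.11 and 0.432 CPM). Whether Btg2 followed activity was not tested.

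Several members are also expressed outside the cortical lineage. Insm1 and Hes6 occur in ganglionic eminence progenitors, and the 12 markers of those cells and of interneurons summed to 257 and 344 CPM in Emx1Cre controls, 370 and 684 CPM in mutants, 357 and 310 CPM in NexCre controls and 289 and 360 CPM in NexCre mutants. Of the 12, 0 were called by edgeR in either line, with 5 higher and 0 at an unadjusted p under 0.05 and medians of 0.66 (Emx1Cre) and −0.09 (NexCre), so they lay on the opposite side of 0 from Insm1 in both. Eomes and Neurog2 mark hippocampal neurogenesis as well, and the 6 hippocampal markers summed to 111 and 103 CPM in Emx1Cre controls, 111 and 106 CPM in Emx1Cre mutants, 490.4 and 325 CPM in NexCre controls and 693 and 497 CPM in NexCre mutants. Zbtb20 made up most of the NexCre sums (374 and 235 CPM in controls, 574 and 385 CPM in mutants). The 6 markers went both ways, with log2 fold changes from −0.89 to 1.09 in the Emx1Cre line (median −0.04). In the NexCre line they ran from −1.25 to 1.00 (median 0.19). The 7 Cajal-Retzius markers, cells that can carry Eomes, summed to 128 and 152 CPM in Emx1Cre controls, 92.8 and 112 CPM in Emx1Cre mutants, 523 and 511 CPM in NexCre controls and 569 and 404 CPM in NexCre mutants, with medians of −0.57 and −0.30. Each of these markers had reads in at least 1 library, and their part in the member values was not tested.

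Other tissues were uneven among libraries. Meningeal markers summed to 163 CPM in Emx1Cre mutant 2 and to 17.8 to 44.8 CPM in the other Emx1Cre libraries, and striatal markers to 462 CPM there and to 166 to 194 CPM in the others. Meningeal markers had 7 of 8 and striatal markers 3 of 8 higher at an unadjusted p under 0.05 in the Emx1Cre line, with 0 called by edgeR. Subplate markers summed to 275 and 279 CPM in Emx1Cre mutants against 346 and 392 CPM in their controls, with 4 of 7 lower at that p and 0 called. Thalamic markers summed to 303 CPM in NexCre control 1 and to 81.9 to 98.5 CPM in the other NexCre libraries, and choroid plexus markers reached 384 CPM in NexCre control 1 and 2083 CPM in NexCre mutant 1, with 5.92 and 22.9 CPM in the second library of each group. Insm1 was 5.30 CPM in Emx1Cre mutant 2 and 2.39 CPM in mutant 1, and its log2 fold change without mutant 2 was −2.37. Astrocyte markers summed to 1679 and 1637 CPM in Emx1Cre controls and to 4025 and 3424 CPM in mutants, with 1 of 7, Sparcl1, called higher. At an unadjusted p under 0.05, 6 of 7 were higher in the Emx1Cre line and 0 in the NexCre line (medians 1.15 and 0.17). The thalamic list also had 1 of 7 called higher in the Emx1Cre line, Slc6a4. In the NexCre line Slc6a4 had control values of 0.685 and 0.999 CPM and mutant values of 4.79 and 3.10 CPM. It was thus not high in NexCre control 1, where the thalamic sum was highest. Microglia, endothelium, oligodendrocyte and erythroid lists had 0 genes called by edgeR in either mutant comparison (1, 4, 0 and 0 at an unadjusted p under 0.05 in the Emx1Cre line, 0 in each in the NexCre line), with medians of 0.56, 0.51, 0.19 and 0.45 in the Emx1Cre line and 0.32, 0.26, 0.02 and −0.38 in the NexCre line. Their part in the member values was not tested.

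Overlapping genes limit 2 members. Eomes overlaps Gm33460, an antisense gene on the opposite strand with 0 reads in each Emx1Cre library and 8 to 29 reads in the NexCre libraries, and Sstr2 overlaps Slc39a11, on the opposite strand, with 1355 to 2455 reads in the Emx1Cre and 835 to 1065 reads in the NexCre libraries. The strand setting of the counting was not found in the labels, so reads of the 2 strands cannot be told apart.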

How the data were processed

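RNA of 8 libraries was sequenced as paired reads of 100 bp after mRNA isolation, per the labels' protocols. The authors deposited 1 table of read counts per gene for each line. HISAT2, SAMtools, DESeq2 and build mm10 are named in the submitters' processing notes. No source used here names the counting program, the annotation or the strand setting. Both tables were joined by symbol. Symbols turned into date numbers were left out, 26 in the Emx1Cre and 24 in the NexCre table (0.239% to 0.269% of reads). Positions and exon lengths are from GENCODE M21, which matched 53437 genes (96.8%).

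Genes were kept by edgeR's filterByExpr (minimum count 10, minimum total 15), leaving 22820. One model held all 8 libraries, with group as its only term and TMM scaling (edgeR 4.0.16, R 4.3.3, glmQLFit with prior count 0.125). It had 4 residual and 5.95 prior degrees of freedom. Tests were two-sided quasi-likelihood F tests, p was adjusted by Benjamini-Hochberg across the 22820 genes, and the threshold was 0.05. SE and 95% intervals come from that model. Simulated data were used to test its calls and their direction, and not its SE or intervals. An exact two-sided permutation test of 2 against 2 libraries cannot go below 0.333, so each p rests on a spread shared across genes. Replicates differed by more than counting error (chi-square per degree of freedom 23.1 to 80.2) and were counted separately. DESeq2 1.42.0, other scalings and filters, a replicate block and fits without each library were alternatives.

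Members and lists were chosen with earlier results of these data known, so no list was tested. All members are named. From pathway lists the called genes, or else the 2 with the lowest p in either line, were named. Pax6, Lfng, Cplx3 and the comparison of controls were chosen after values were seen. Of the genes these rules name, 2 are not reported here.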

Additional observations from a re-analysis of the deposited data

How the results depend on the processing

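Leaving out single libraries gave 0 to 28 genes called in Emx1Cre mutants, 1 to 43 in NexCre mutants, 1 to 31 for the difference of effects and 7074 to 10949 between controls, against 18, 7, 1 and 10456 with all libraries. Members called ranged from 0 to 1, 0 to 0, 0 to 1 and 3 to 4. They were Insm1 without Emx1Cre mutant 2 (adjusted p = 0.00905 in the Emx1Cre line and 0.0114 for the difference, edgeR) and Eomes without Emx1Cre control 2 (adjusted p = 0.0499 and 0.0484, edgeR), each with a lone sample assumed to vary like the other groups, and Btg2 between controls without Emx1Cre control 1. With no low-count filter 585, 251 and 408 genes and 2, 0 and 2 members were called (Eomes and Insm1). DESeq2 called 298, 76 and 96 genes and 1, 0 and 1 members (Insm1). Each line alone gave 0 genes for Emx1Cre (edgeR, 1181 with unadjusted p below 0.05) and 17 for NexCre. The cause of these shifts was not tested. With the replicate block, 82, 22 and 5 genes and 2, 0 and 1 members were called: Eomes at −3.11 and Insm1 at −1.78 in the Emx1Cre line (adjusted p = 0.0187 and 0.0472, edgeR), and Eomes at −3.82 for the difference. Same-numbered libraries deviated together with a correlation of 0.323 in the Emx1Cre and 0.151 in the NexCre line, over 1 pair of differences each, and nothing in the labels ties a number to a litter or day.

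Signs that changed belonged to values near 0 or to single libraries. In the Emx1Cre line Btg2 was 0.0235 with the replicate block. In the NexCre line Btg2 was 0.0081 (RLE), 0.0063 (upper quartile), 0.0066 (library size alone), 0.0087 (strict filter) and 0.008 (DESeq2). For the difference Btg2 was 0.0442 with the replicate block. Between controls Hes6 was 0.0196 (RLE), 0.0267 (upper quartile), 0.0844 (library size alone), 0.0251 (strict filter) and 0.0197 (DESeq2). Without single libraries the range in the Emx1Cre line was −5.67 to 0.00099 for Eomes, −0.51 to 0.19 for Mfng, −0.65 to 0.74 for Btg2 and −0.0654 to 0.289 for Sstr2, in the NexCre line −0.27 to 0.20 for Btg2 and −0.10 to 0.24 for Hes6, for the difference −0.64 to 0.75 for Btg2, and between controls −0.0703 to 0.634 for Mfng and −0.22 to 0.122 for Hes6. Depth limits Eomes, Neurog2 and Neurog1 in the Emx1Cre line, where single libraries held 0 to 26 reads except Emx1Cre control 1 (155 and 91 reads of Eomes and Neurog2) and mutant 1 (41 of Neurog2).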
